A study of Mus musculus with 6 samples.

Results

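The BCL2 family controls whether the outer membrane of mitochondria stays intact. Survival proteins (BCL2, BCL-xL, MCL1 and A1) hold the effectors BAX and BAK in check, and BH3-only proteins such as BID and BAD relieve that hold, after which BAX and BAK open pores, cytochrome c escapes and caspases are switched on. In the liver, MCL1 and BCL-xL are known to keep hepatocytes alive, whereas A1, encoded in the mouse by several Bcl2a1 copies, is an NF-kB-inducible gene of blood cells such as neutrophils and mast cells.

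The 10 members were taken by name from the gene tables: the survival genes Bcl2, Bcl2l1, Mcl1, Bcl2a1a, Bcl2a1b and Bcl2a1d, the effector genes Bax and Bak1, and the BH3-only genes Bid and Bad. They are 10 of the 15454 genes of the count table, and all 10 were among the 12411 genes that passed the filter on low counts. RNA had been sequenced from livers of male C57BL/6 mice aged 8 to 10 weeks, for which the labels name no genetic change, after warm ischemia and reperfusion of 75% of the liver. The operation was shared by both groups: the 3 I/R livers are those of vehicle-treated animals, and the 3 I/R+Rk2 livers are those of animals that received ginsenoside Rk2, a saponin from ginseng, 2 days before surgery and at the start of reperfusion. No sham-operated liver was analysed here, so the levels cannot be set against an uninjured liver. The comparison of I/R+Rk2 with I/R addresses whether Rk2 alters cell death genes in the injured liver.

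Libraries held 16809613 to 35618074 counts, and 3 counts stood for 0.0888 to 0.184 CPM (counts per 1000000 of the scaled library), a limit that covers counting error only. The groups lay apart along the first principal component, which carried 66.9% of the variance. The 8 hepatocyte markers examined summed to 61100 to 71500 CPM in I/R livers against 92600 to 115000 CPM after Rk2, far above any other marker list, as liver tissue should give. Because whole tissue was sequenced, fewer cells of a type and less RNA per cell cannot be told apart. The labels do not state that the numbered samples of a group come from separate operations, so p-values measure only the spread between these samples, which may be technical.

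Among the 10 members, survival genes other than Bcl2 were lower in the livers of Rk2-treated mice. The death members moved less and in both directions, which does not extend to all other genes of the family, given below. Of the 10 members, 7 had an edgeR adjusted p below 0.05, 6 lower and 1 higher in I/R+Rk2, where 43.9% of all genes tested passed in either direction, 23.7% lower and 20.3% higher. The 3 Bcl2a1 copies share sequence and count 3 times in that number, and with the copies summed into 1 gene, 5 of 8 passed. With a fold change above 2 required as well, 4 of 10 passed, or 2 of 8 with the copies summed, against 14.6% of all genes. The CPM of the groups did not overlap for 6 of 10 members, or 4 of 8 with the copies summed, against 57.4% of all genes. By role, with the Bcl2a1 copies counted as 3 genes, 5 of 6 survival genes fell, 1 of 2 effectors fell, and 1 of 2 BH3-only genes rose. The median log2 fold change (I/R+Rk2 over I/R) was -0.67 over the 10 members, with the copies counted as 3, and -0.01 over all genes. With the copies summed, the median of the members lies nearer 0, between the values of Bak1 (-0.47) and Bid (-0.17). Scaling by library size alone shifted the median of all genes to -0.17 and raised the lower share of the genes that passed from 53.9% to 72.5%, and each of the 7 members kept its direction under every scaling tried.

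**Figure D1:**
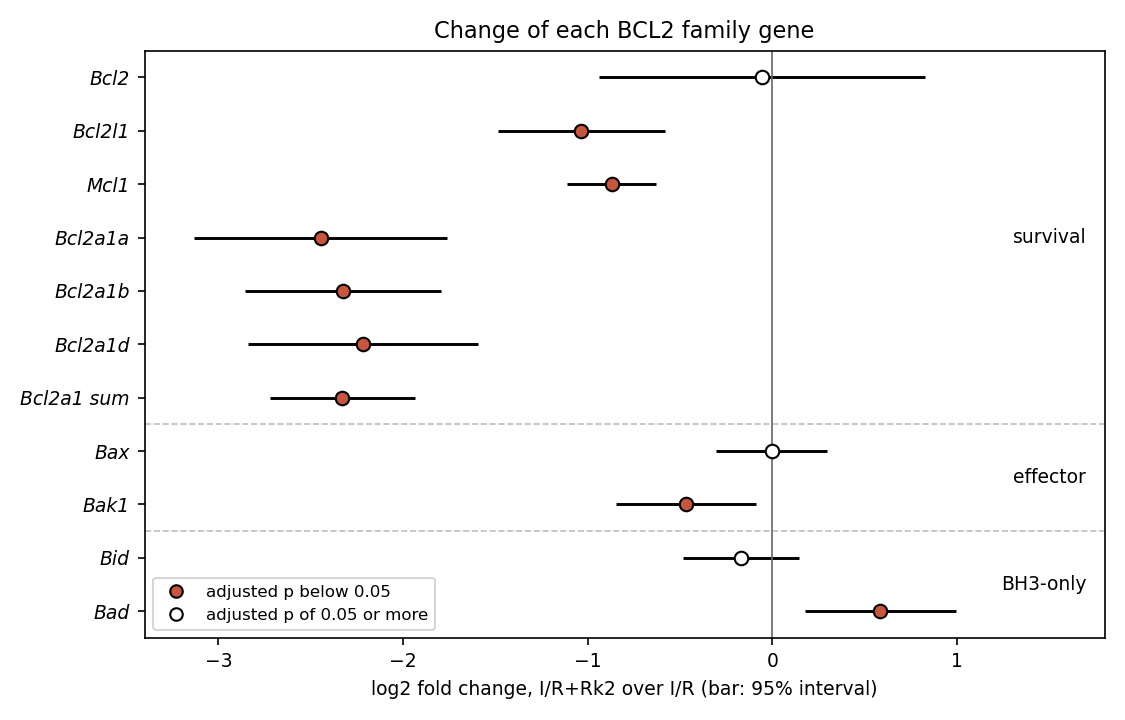
The horizontal axis gives the log2 fold change of each BCL2 family gene, I/R+Rk2 over I/R (3 livers each), with its 95% interval as a bar, and filled points have an edgeR adjusted p below 0.05. The Bcl2a1 copies lie between -2.45 and -2.22 and their sum at -2.33, Bcl2l1 lies at -1.04 and Mcl1 at -0.87, the intervals of Bcl2, Bax and Bid cross 0, and Bad lies at 0.58.

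The Bcl2a1 copies showed the largest falls among the members. Because reads can be split between them, their sequences are shown first. Bcl2a1d (chr9:88723285-88731914, minus strand), Bcl2a1a (chr9:88956900-88962419, plus strand) and Bcl2a1b (chr9:89199209-89207827, plus strand) lie within 485 kb in build mm10. Their coding sequences are each 516 bases long. Bcl2a1a and Bcl2a1b differ at 11 of these bases, Bcl2a1a and Bcl2a1d at 7, and Bcl2a1b and Bcl2a1d at 6, which is 97.9%, 98.6% and 98.8% identity. The first 120 coding bases hold 7 of the 12 positions at which the copies are not all alike. They are shown 5′ to 3′ from the GENCODE M21 transcripts, at chr9:88957051-88957170, chr9:89199360-89199479 and chr9:88731600-88731719 for Bcl2a1a, Bcl2a1b and Bcl2a1d, with those positions in capitals.
Bcl2a1a: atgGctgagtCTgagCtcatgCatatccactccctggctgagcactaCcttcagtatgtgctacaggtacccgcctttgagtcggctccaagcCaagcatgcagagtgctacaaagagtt
Bcl2a1b: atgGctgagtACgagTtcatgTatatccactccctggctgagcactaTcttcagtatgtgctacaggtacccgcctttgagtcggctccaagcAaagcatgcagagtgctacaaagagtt
Bcl2a1d: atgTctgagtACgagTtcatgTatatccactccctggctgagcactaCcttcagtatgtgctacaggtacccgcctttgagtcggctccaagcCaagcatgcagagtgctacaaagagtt
The stretch between the capitals is one run of letters in all 3, and a read from such a run names no copy. Of all 100-base windows of a transcript, 43.5% of Bcl2a1a, 31.1% of Bcl2a1b and 54.7% of Bcl2a1d occur in another of these copies. How such reads were shared out is not given in the sources used here, so each copy's level is uncertain and the sum is the firmer value.

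The summed Bcl2a1 copies had 7.82, 7.06 and 8.97 CPM in I/R replicates 1 to 3 and 1.64, 1.51 and 1.60 CPM in I/R+Rk2 replicates 1 to 3. The groups were far apart relative to their spread, at 7.95 ± 0.960 and 1.58 ± 0.0659 CPM (SD, n = 3). The sum fell by 2.33 on the log2 scale, with a standard error of 0.17 and a 95% interval from -2.72 to -1.94, and was 5.03-fold lower (edgeR adjusted p = 0.000255). It passed in each of the 17 alternative analyses, in which its log2 fold change ran from -2.49 to -1.98. The Bcl2a1 genes are among those that the study displayed for these livers, so their direction is not independent evidence.

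The count row of each copy was lower as well. Because reads can be shared between the copies, these rows are not separate support and cannot show what each copy did. Bcl2a1a had 39, 44 and 61 counts in I/R and 9, 14 and 5 in I/R+Rk2, or -2.45 ± 0.29 (SE) as a log2 fold change (edgeR adjusted p = 0.00114). Bcl2a1b had 64, 84 and 98 counts against 19, 21 and 11, or -2.33 ± 0.23 (SE) as a log2 fold change (edgeR adjusted p = 0.000609). Bcl2a1d had 47, 53 and 66 counts against 11, 16 and 10, or -2.22 ± 0.26 (SE) as a log2 fold change (edgeR adjusted p = 0.00114). Within the summed counts, Bcl2a1b supplied 41.2% to 48.7% per liver, Bcl2a1d 28.2% to 38.5% and Bcl2a1a 19.2% to 27.5%, with ranges that overlapped between the groups for each copy. Bcl2a1b shares exon positions with the predicted gene Gm29094 on the same strand, which had 11, 15 and 14 counts in I/R and 0, 12 and 0 in I/R+Rk2. A further copy that is no member, Bcl2a1c, had 3, 2 and 3 counts against 0, 1 and 0 and was not tested.

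The copies also share their upstream sequence, which is shown because the count rows of all 3 were lower. In RefSeq's promoter windows of build GRCm38.p6 (250 bases before to 50 after the annotated start), a run of 84 bases is identical in all 3 copies. It ends 103, 147 and 97 bases before the start that RefSeq annotates for Bcl2a1a, Bcl2a1b and Bcl2a1d, which is not the GENCODE M21 start given above. Below, 142 bases around it are printed 5′ to 3′ along each gene, with the identical run in capitals, from chr9:88956715-88956856 (plus strand), chr9:89199024-89199165 (plus strand) and chr9:88731908-88732049 (minus strand).
Bcl2a1a: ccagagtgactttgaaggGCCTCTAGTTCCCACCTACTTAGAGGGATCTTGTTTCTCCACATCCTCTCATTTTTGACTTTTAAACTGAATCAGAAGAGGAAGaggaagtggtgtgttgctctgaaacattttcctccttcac
Bcl2a1b: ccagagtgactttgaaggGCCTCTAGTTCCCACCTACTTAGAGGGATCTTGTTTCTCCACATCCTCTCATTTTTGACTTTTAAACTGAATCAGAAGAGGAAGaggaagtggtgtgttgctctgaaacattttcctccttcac
Bcl2a1d: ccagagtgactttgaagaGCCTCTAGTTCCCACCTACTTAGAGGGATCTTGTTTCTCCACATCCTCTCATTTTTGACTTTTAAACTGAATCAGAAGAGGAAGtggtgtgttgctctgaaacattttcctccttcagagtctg
The core letters of the myeloid factor PU.1, GAGGAAGT, occur once in each printed stretch, reaching 1 base past the run in Bcl2a1d and starting at the last base of the run in Bcl2a1a and Bcl2a1b. Searched on both strands, these letters were in 3.20% of all 32851 windows and in 5 of the 13 windows of the 10 members. These were windows of the 3 Bcl2a1 copies, Bak1 and Bad, and the copies, which share this sequence, are not separate cases. The AP-1 letters TGAGTCA were in 5.20% of all windows and in none of the members'. A match of letters is a description of the window and not of a bound site.

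Markers of neutrophils and monocytes fell beside Bcl2a1. Neutrophil markers passed as lower in 11 of 12 (median log2 fold change -2.11), and their summed level was 1170 to 1480 CPM in I/R livers against 153 to 315 CPM after Rk2. Monocyte markers passed as lower in 8 of 8 (median -4.34), with 211 to 243 CPM in I/R livers against 13.3 to 23.0 CPM after Rk2. None of these markers was at 0 in a whole group. Kupffer cell markers passed as lower in 1 of 10 (median -0.46), with 92.1 to 144 CPM against 75.8 to 92.7 CPM. Mast cell markers were scarce, at 4.57 to 5.79 CPM against 2.15 to 3.24 CPM, with Cpa3 and Tpsb2 at 0 in all I/R+Rk2 livers. Mcpt4 and Fcer1a were not in the count table, so the sum in I/R+Rk2 was that of Kit alone. Kit, the 1 marker of 5 that was tested, passed as lower (-0.77). T and NK cell markers, with Nkg7 at 0 in all I/R livers, summed to 1.09 to 1.91 CPM against 1.17 to 3.91 CPM, and B cell markers to 0.261 to 0.957 CPM against 0.983 to 1.13 CPM. Of these, 1 of 8 and 0 of 4 markers were tested, and none passed. What part these cells had in the fall of Bcl2a1 was not tested.

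**Figure D2:**
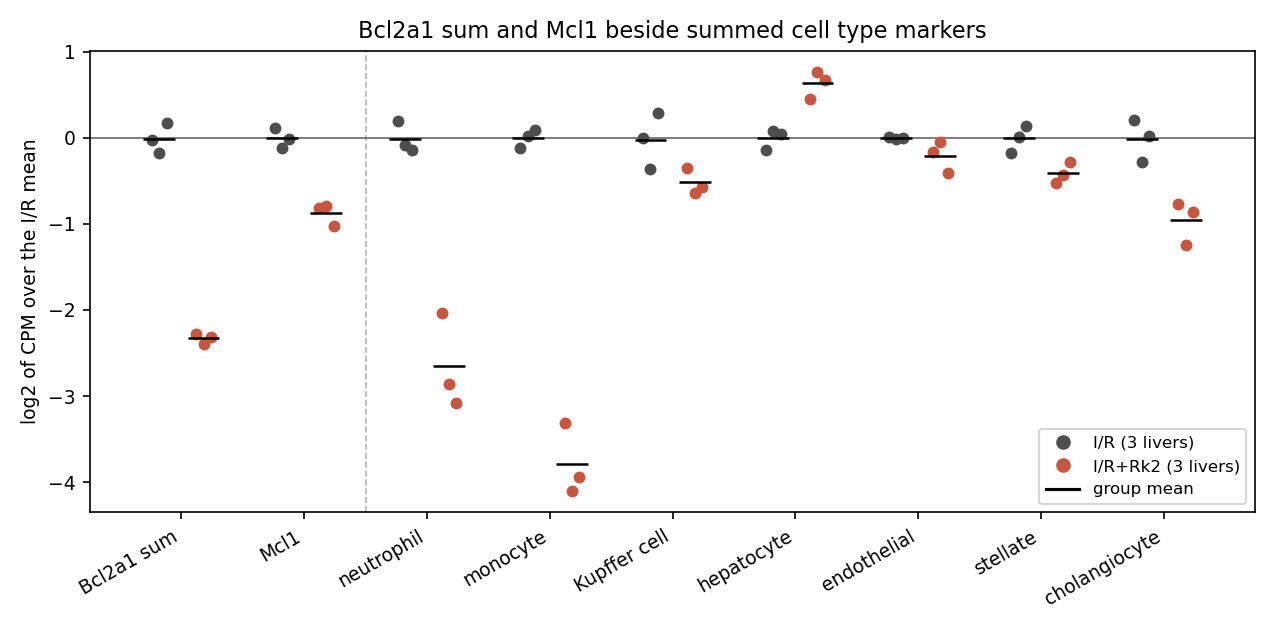
The vertical axis gives log2 of the CPM in each liver over the I/R mean, for the summed Bcl2a1 copies, Mcl1 and the summed markers of 7 cell types, with lines at group means. In I/R+Rk2 the Bcl2a1 sum lies between -2.40 and -2.28, neutrophil markers between -3.08 and -2.03, monocyte markers between -4.11 and -3.32 and Mcl1 between -1.02 and -0.79, while hepatocyte markers lie above 0.

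Among the 5 tested genes whose centred log2 CPM ran closest to the Bcl2a1 sum over the 6 livers were Itpripl2, Tgfbi, Abr and Slc11a1. Their root mean square differences from it were 0.0764, 0.0943, 0.111 and 0.120 log2 units. Slc11a1, which encodes a metal transporter of phagosomes, was at 15.5 ± 1.76 CPM in I/R livers against 2.80 ± 0.363 CPM after Rk2, and Tgfbi, which encodes a secreted matrix protein, at 74.05 ± 4.86 and 16.6 ± 1.74 CPM. This is a description of likeness over 2 separate groups, with no test.

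Mcl1 (chr3:95658788-95663176, mm10), which encodes a short-lived survival protein that binds BAK and BH3-only proteins, had the highest FPKM (a fragment count divided by transcript length in kilobases and by each 1000000 fragments mapped) of the members in every liver. It had 297, 255 and 274 CPM in I/R livers against 156, 159 and 136 CPM after Rk2, and the highest treated liver lay well below the lowest I/R liver. Mcl1 fell by 0.87 on the log2 scale, with a standard error of 0.10 and a 95% interval from -1.11 to -0.63 (edgeR adjusted p = 0.00109), and it passed in each of 17 alternatives. Its fold change was below 2, except in the FPKM analyses and when scaled by library size alone, where the log2 value lay between -1.04 and -1.02. The 5 genes closest to Mcl1 in pattern were She, Xdh, Tinagl1, Bmp2k and Pdk4, at root mean square differences of 0.0487, 0.0509, 0.0524, 0.0552 and 0.0561. Xdh, which encodes the xanthine oxidoreductase that forms uric acid, was at 187 ± 12.6 CPM in I/R livers against 100.1 ± 3.40 CPM after Rk2, and Pdk4, a kinase that inhibits pyruvate dehydrogenase, at 61.7 ± 4.62 and 33.3 ± 1.63 CPM.

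Bcl2l1 (chr2:152780668-152831728, mm10) encodes BCL-xL, which holds BAX, BAK and BH3-only proteins. It had 64.3, 77.9 and 63.2 CPM in I/R livers against 26.4, 30.5 and 43.7 CPM after Rk2. I/R+Rk2 replicate 3 was the highest treated liver, still below all I/R livers. Bcl2l1 fell by 1.04 on the log2 scale, with a standard error of 0.19 and a 95% interval from -1.49 to -0.58 (edgeR adjusted p = 0.00548). All 17 alternatives kept an adjusted p below 0.05, the highest being 0.0243, but the fold of 2.05 lay close to the limit of 2. It was under that limit with upper-quartile scaling (log2 fold change -0.98) and without I/R replicate 2 (-0.93), I/R+Rk2 replicate 1 (-0.90) or I/R+Rk2 replicate 2 (-0.97).

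In FPKM, the fall of Bcl2l1 was larger. Its FPKM was 38.0, 40.3 and 37.3 in I/R and 14.3, 12.7 and 16.2 in I/R+Rk2, a log2 ratio of the means of -1.42 against -1.03 in CPM. The CPM carry TMM scaling and the FPKM do not, so the 2 differ in scaling as well as in length. By library size alone, the edgeR log2 fold change of Bcl2l1 was -1.20. The transcript length that turns CPM by library size alone into FPKM was 1930, 1980 and 1720 bases in I/R. In I/R+Rk2 this length was 1790, 2280 and 2470 bases, a log2 shift of 0.22. Of 9621 genes for which this length was computed, 6.49% had a rise in it after Rk2 as large as that of Bcl2l1 or larger. Falls of that size are not in this share. Bcl2l1 has 9 transcripts in GENCODE M21, and whether their mix differed was not tested.

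Bcl2 (chr1:106538178-106714274, mm10), the survival gene that gives the family its name, had the lowest FPKM of the members in both groups. In CPM it lay above Bcl2a1a and Bcl2a1d in I/R+Rk2 by group mean. It had 17, 12 and 20 counts in I/R and 12, 24 and 14 in I/R+Rk2, or 0.886, 0.468 and 0.797 CPM against 0.504, 0.711 and 0.860 CPM. The groups overlapped throughout. Its log2 fold change was -0.06 (SE 0.38, edgeR adjusted p = 0.916), and the 95% interval from -0.94 to 0.83 includes a fall as large as that of Mcl1. Its sign turned in 4 of 15 alternatives.

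Bax (chr7:45461697-45466898, mm10), an effector that forms pores in the outer mitochondrial membrane, had 13.03, 12.0 and 14.1 CPM in I/R livers against 12.95, 11.7 and 14.5 CPM after Rk2. The livers of the groups lay within the same range. The log2 fold change was -0.00 with a standard error of 0.13 and a 95% interval from -0.30 to 0.30 (edgeR adjusted p = 0.981), and its sign turned in 6 of 17 alternatives, relative log expression and upper-quartile scaling among them. The predicted gene Gm45808 shares exon positions with Bax on the same strand and had 40, 20 and 20 counts in I/R and 22, 19 and 28 in I/R+Rk2, beside 250, 307 and 354 against 308, 394 and 236 counts of Bax.

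Bak1 (chr17:27019810-27029009, mm10), the other effector, had 21.1, 21.6 and 15.8 CPM in I/R livers against 16.2, 12.7 and 13.3 CPM after Rk2. Treated replicate 1 lay above I/R replicate 3, so the groups overlapped in CPM. In FPKM they did not, at 11.7, 9.54 and 7.67 against 7.07, 5.65 and 5.48. Bak1 fell by 0.47 on the log2 scale, with a standard error of 0.16 and a 95% interval from -0.85 to -0.09 (edgeR adjusted p = 0.0494). The call was lost in 11 of 17 alternatives, DESeq2 and 4 of the 6 analyses that left out 1 liver (I/R replicate 1 or 2, I/R+Rk2 replicate 2 or 3) among them, and the adjusted p ran from 0.0261 to 0.152. Ggnbp1 overlaps exons of Bak1 on the opposite strand and had higher counts after Rk2, with 67, 87 and 79 counts in I/R and 246, 383 and 166 in I/R+Rk2. The strand setting of the counting is not given in the sources used here, so reads of the 2 genes cannot be told apart where they overlap.

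Bid (chr6:120891930-120916853, mm10) encodes the BH3-only protein that caspase-8 cleaves to carry the death receptor signal to mitochondria. It had 11.1, 9.29 and 9.37 CPM in I/R livers against 8.66, 8.05 and 9.76 CPM after Rk2, and the groups overlapped in CPM but not in FPKM (4.67 ± 0.965 and 3.65 ± 0.307, SD, n = 3). Its log2 fold change was -0.17 with a standard error of 0.13 and a 95% interval from -0.48 to 0.14 (edgeR adjusted p = 0.338). Part of Bid overlaps exons of Bcl2l13 on the opposite strand.

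Bad (chr19:6941861-6951899, mm10) encodes a BH3-only protein that binds BCL2 and BCL-xL and that AKT and other kinases inactivate by phosphorylation. It was the only member that rose. Bad had 9.80, 6.52 and 7.26 CPM in I/R livers against 11.1, 11.3 and 12.9 CPM after Rk2, with no overlap. Bad rose by 0.58 on the log2 scale, with a standard error of 0.17 and a 95% interval from 0.18 to 0.99 (edgeR adjusted p = 0.0305). The call was lost in 8 of 17 alternatives, with adjusted p from 0.0131 to 0.283. These were library size alone, the 3 limma analyses of FPKM, and those without I/R replicate 2 or 3 or without I/R+Rk2 replicate 2 or 3. In FPKM the groups overlapped, at 7.57 ± 2.02 in I/R and 9.33 ± 0.928 in I/R+Rk2 (SD, n = 3). Gpr137 overlaps exons of Bad on the opposite strand and had 171, 297 and 224 counts in I/R against 345, 509 and 256 in I/R+Rk2. As the strand setting is not given, reads of Bad and Gpr137 cannot be told apart where they overlap. What part such reads had in the rise of Bad was not tested.

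**Figure D3:**
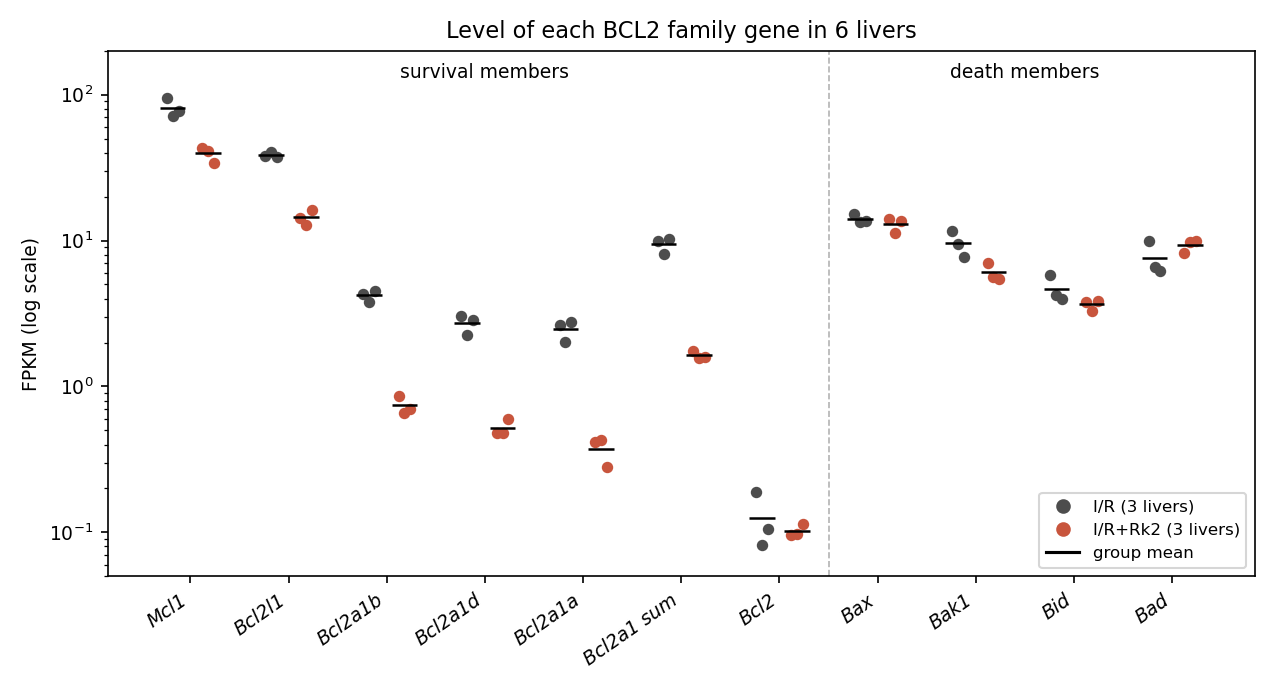
The vertical axis gives FPKM on a log scale for each survival and death member, with 1 point per liver and lines at group means. Mcl1 and Bcl2l1 lie at the top and Bcl2 at the bottom in both groups, and the survival members other than Bcl2 lie lower in I/R+Rk2.

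Levels of different genes were compared per length, in FPKM. In I/R the order of mean FPKM was Mcl1 (81.2 ± 12.0), Bcl2l1 (38.5 ± 1.56), Bax (14.1 ± 0.997), Bak1 (9.63 ± 2.01), Bad (7.57 ± 2.02), Bid (4.67 ± 0.965), Bcl2a1b, Bcl2a1d, Bcl2a1a and Bcl2 (0.125 ± 0.0560). Neighbours whose ranges overlapped were Bak1 and Bad, Bid and Bcl2a1b, and Bcl2a1d and Bcl2a1a. In I/R+Rk2 the order began with Mcl1 (39.6 ± 4.76), Bcl2l1 (14.4 ± 1.75) and Bax (13.01 ± 1.45), and the ranges of Bcl2l1 and Bax overlapped. Bad (9.33 ± 0.928) then stood above Bak1 (6.06 ± 0.872), with no overlap, and Bid, Bcl2a1b, Bcl2a1d, Bcl2a1a and Bcl2 followed. Mcl1 made up 59.6% to 66.2% of the summed FPKM of the survival members in I/R and 65.7% to 74.2% in I/R+Rk2, and the Bcl2a1 copies together 6.75% to 8.14% against 2.82% to 3.04%. The Bcl2 share was at most 0.219% in any liver.

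Ratios of survival to death members were compared per liver in FPKM, and none of the 4 passed its test. Bcl2l1 stood at 2.50, 3.01 and 2.74 times the FPKM of Bax in I/R and at 1.02, 1.12 and 1.19 times in I/R+Rk2. The log2 ratio went from 1.45 ± 0.133 to 0.15 ± 0.108. For Mcl1 to Bax the ratios were 6.22, 5.33 and 5.69 against 3.08, 3.65 and 2.50, and for Mcl1 to Bak1 they were 8.10, 7.49 and 10.1 against 6.11, 7.33 and 6.24. None of these 3 ratios overlapped between groups, and each gave p = 0.1 in a two-sided exact permutation test, the smallest that 3 against 3 livers can give (0.133 after adjustment over the 4 ratios). Bcl2 to Bax, the ratio most often quoted for this family, had a log2 value of -6.90 ± 0.516 in I/R and -6.99 ± 0.175 in I/R+Rk2 (exact permutation p = 0.9). Summed over the members alone, survival FPKM was 3.36, 3.55 and 3.97 times death FPKM in I/R and 1.79, 1.85 and 1.58 times in I/R+Rk2. In CPM, which takes no length into account, the log2 ratio of Bcl2l1 to Bax changed by -1.05 rather than -1.31, and that of Mcl1 to Bak1 by -0.41 with p = 0.2 (exact permutation). RNA levels do not give protein levels or phosphorylation.

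**Figure D4:**
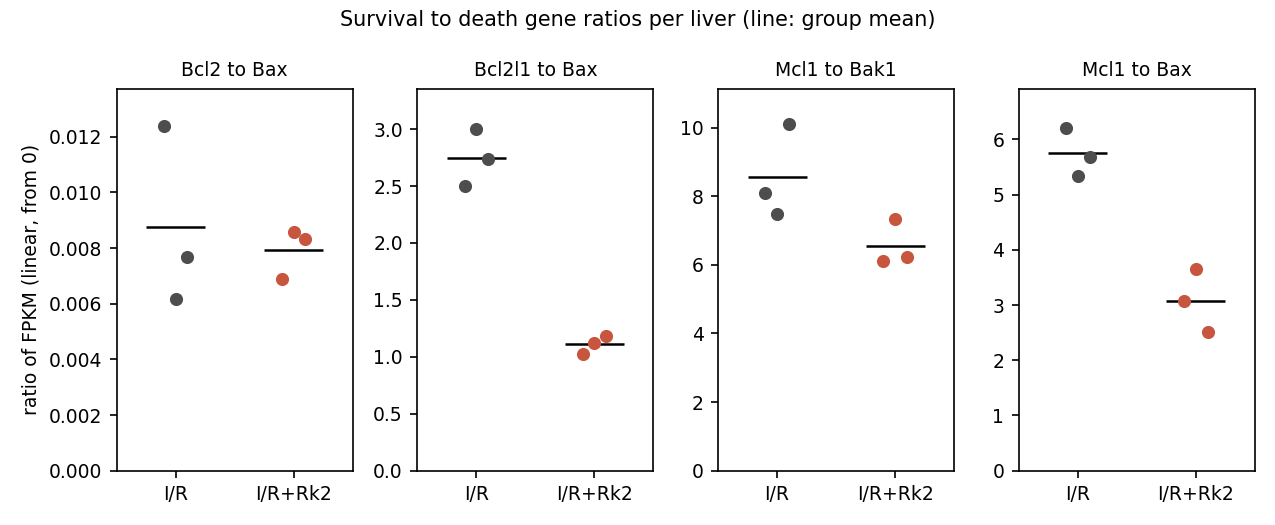
Each panel gives the FPKM ratio of a survival gene to a death gene per liver, on a linear axis from 0, with lines at group means. The 3 ratios with Bcl2l1 or Mcl1 do not overlap between groups (for Bcl2l1 to Bax, 2.50 to 3.01 in I/R and 1.02 to 1.19 in I/R+Rk2), and Bcl2 to Bax overlaps.

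Other genes of the pathway were read from 8 lists with 75 genes, of which 73 were in the count table and 70 were tested. Of these, 31 had an adjusted p below 0.05, 15 lower and 16 higher (median log2 fold change -0.00), beside 43.9% of all genes. Single values that follow are log2 fold changes. Among the other effector and BH3-only genes, 3 of 6 tested rose and 1 fell (median log2 fold change 0.47). Bik, which encodes a BH3-only protein of the endoplasmic reticulum, rose from 1.93, 1.87 and 1.12 CPM to 4.04, 4.26 and 4.24 CPM, or 1.35 ± 0.25 (SE) as a log2 fold change (edgeR adjusted p = 0.00506). Bbc3, which encodes the p53-induced protein PUMA, rose from 4.07, 4.76 and 5.54 CPM to 7.69, 10.7 and 10.4 CPM, or 0.998 ± 0.19 (SE) as a log2 fold change (edgeR adjusted p = 0.00542). Bbc3 missed the threshold in the 3 FPKM analyses. Bok, a relative of BAX and BAK, rose by 0.62 (SE 0.15, edgeR adjusted p = 0.0131), a call lost with library size alone.

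Bcl2l11, which encodes BIM, a BH3-only protein that binds every survival member, fell in the same list. It had 13.97, 12.5 and 13.9 CPM in I/R livers against 8.32, 6.22 and 3.01 CPM after Rk2, or -1.18 ± 0.31 (SE) as a log2 fold change (edgeR adjusted p = 0.0199). The call was lost without I/R replicate 1, I/R replicate 3 or I/R+Rk2 replicate 2, at adjusted p up to 0.0575. Pmaip1, which encodes the MCL1-binding protein NOXA, stood at -0.91 on the log2 scale (edgeR adjusted p = 0.0804), and Bmf at 0.31 (0.556). Hrk had 5, 5 and 2 counts in I/R and 0 in each I/R+Rk2 liver and was not tested.

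Of the other survival genes, Bcl2l2, which encodes BCL-w, was tested and had 13.8, 13.7 and 3.75 CPM in I/R against 11.5, 11.9 and 14.5 CPM (log2 fold change 0.28, edgeR adjusted p = 0.633). I/R replicate 3 stood apart, and without it the log2 fold change was -0.13. Bcl2l10 was listed at 0 FPKM and was not tested. Among 6 tested distant relatives, 1 fell and none rose (median 0.12). Bcl2l14 had 86, 66 and 64 counts in I/R and 0, 6 and 2 in I/R+Rk2 (log2 fold change -4.84, edgeR adjusted p = 0.00145). Bcl2l12 and Bnip3l had log2 fold changes of 0.52 (edgeR adjusted p = 0.122) and 0.29 (0.178).

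Downstream of the mitochondria, 2 of 14 tested apoptosome, caspase and inhibitor genes fell and 6 rose (median 0.21). Apaf1, the scaffold of the apoptosome and a gene that the study displayed for these livers, fell from 8.19, 8.98 and 6.66 CPM to 3.83, 3.23 and 2.76 CPM, or -1.27 ± 0.19 (SE) as a log2 fold change (edgeR adjusted p = 0.00231). Endog, a mitochondrial nuclease, rose by 0.48 (SE 0.12, edgeR adjusted p = 0.0168). Endog did not pass with library size alone, in the FPKM analyses or without I/R replicate 1 or 3.

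Upstream of BID, 4 of 8 tested death receptor genes fell and 1 rose (median -0.49). Tnfrsf1a, the main receptor for TNF, fell from 187, 190 and 169 CPM to 96.3, 88.1 and 81.1 CPM, or -1.04 ± 0.10 (SE) as a log2 fold change (edgeR adjusted p = 0.000547). Casp8, which cleaves BID, fell by 0.76 (SE 0.09, edgeR adjusted p = 0.00120), and Cflar, which encodes the caspase-8 inhibitor FLIP, by 0.70 (SE 0.12, edgeR adjusted p = 0.00418).

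For the genes listed for turnover of MCL1 protein, 2 of 8 tested fell and 1 rose (median -0.19). Huwe1, an MCL1 ubiquitin ligase, fell by 0.61 (SE 0.09, edgeR adjusted p = 0.00241), and Gsk3b, a kinase that marks MCL1 for degradation, fell by 0.62 (SE 0.11, edgeR adjusted p = 0.00449). Btrc, which encodes the recognition subunit of another ligase, rose by 0.75 (SE 0.12, edgeR adjusted p = 0.00293). Huwe1 did not pass in the 3 FPKM analyses and Btrc not in 2 of them.

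Among BAD kinases and 14-3-3 proteins, which hold phosphorylated BAD in the cytosol, 5 of 17 tested fell and 2 rose (median -0.27). Rps6ka3, which encodes the kinase RSK2, fell from 19.0, 15.6 and 24.5 CPM to 5.09, 4.29 and 3.56 CPM, or -2.18 ± 0.21 (SE) as a log2 fold change (edgeR adjusted p = 0.000593). In FPKM its log2 fold change was smaller, at -0.81 with a pseudocount of 1 and -1.14 with one of 0.1, and the call was lost in 2 of the 3 FPKM analyses. Ywhag, which encodes 14-3-3 gamma, fell by 1.07 (SE 0.12, edgeR adjusted p = 0.00105). Prkaca, a catalytic subunit of protein kinase A, rose by 0.67 (SE 0.10, edgeR adjusted p = 0.00242).

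Of 10 tested partners at the outer mitochondrial membrane, 3 rose and none fell (median 0.21). Mtch2, a receptor for cleaved BID, rose by 0.58 (SE 0.10, edgeR adjusted p = 0.00431), the fusion gene Mfn2 by 0.53 (SE 0.10, edgeR adjusted p = 0.00593) and the channel gene Vdac1 by 0.42 (SE 0.10, edgeR adjusted p = 0.0122). None of these 3 passed in the FPKM analyses, nor did Vdac1 with library size alone or without I/R replicate 3. Hepatocyte markers, of which 4 of 8 rose and 1 fell (median 0.34), were also higher in summed level, beside these genes and Bad, and their part in these changes was not tested. Markers of endothelial cells (169 to 171 CPM in I/R, 129 to 165 CPM in I/R+Rk2, 3 of 6 lower and 2 higher, median -0.16), stellate cells (143 to 177 against 112 to 133 CPM, 2 of 6 lower, median -0.21) and cholangiocytes (164 to 230 against 83.8 to 117 CPM, 2 of 5 lower, median -0.61) were lower in summed level.

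**Figure D5:**
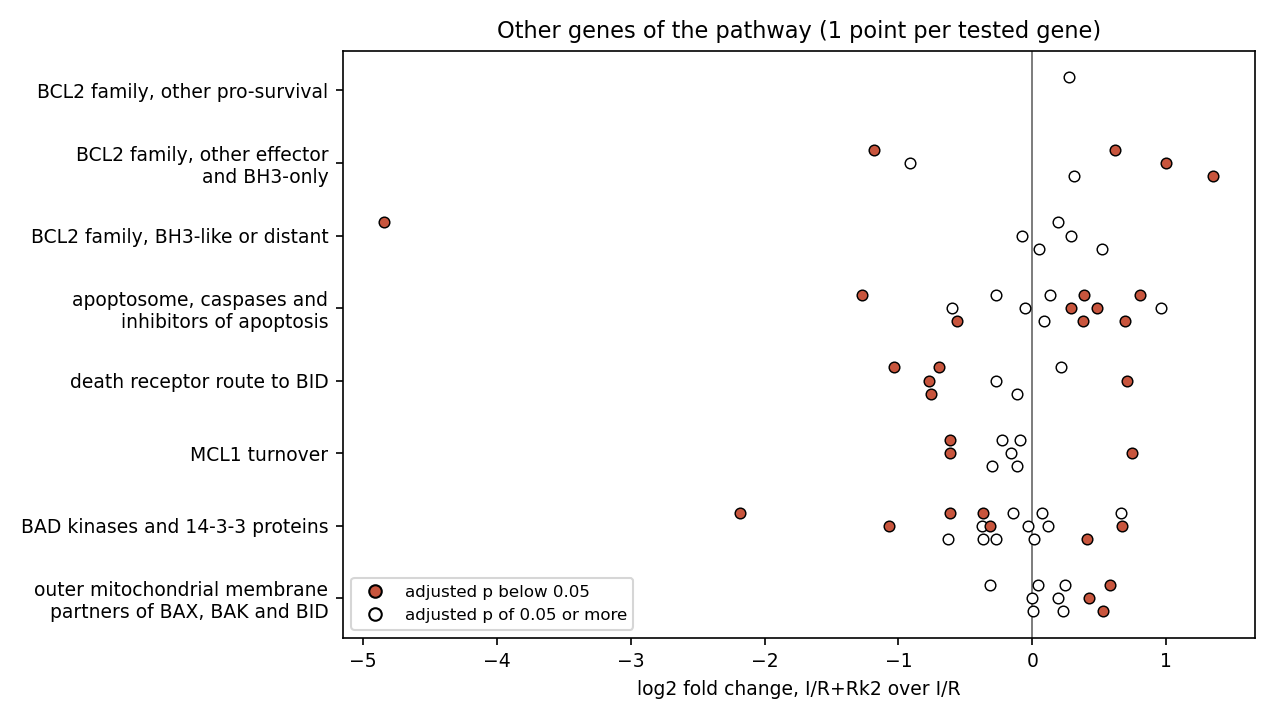
The horizontal axis gives the log2 fold change of each of the 70 tested pathway genes, I/R+Rk2 over I/R, by list, with filled points at an edgeR adjusted p below 0.05. Filled points lie on both sides of 0 in 5 of the 8 lists, the outer membrane list has them only to the right, and Bcl2l14 lies farthest to the left at -4.84.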

How the data were processed

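Liver RNA libraries (MGIEasy kit, 250 ng RNA) were aligned by the authors with HISAT2 2.2.1 to mm10 and summarised with StringTie 1.3.3 after FastQC 0.11.5, per the submitters' processing notes. Annotation and strand setting are not given in the sources used here. The authors deposited raw gene counts and, separately, FPKM values, and 0 columns were unmatched.

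Counts were filtered by filterByExpr, scaled by TMM and tested with edgeR 4.0.16 in R 4.3.3 (quasi-likelihood F test, Benjamini-Hochberg over 12411 genes, adjusted p below 0.05, with a fold above 2 where stated). DESeq2 1.42.0, which the study used, and limma 3.58.1 on log2(FPKM + 1) or log2(FPKM + 0.1) were alternatives. Standard errors are the absolute log2 fold change over the square root of F. Scripts were tested on simulated data. FPKM ratios used exact permutation in SciPy 1.17.1.

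Members and lists were chosen with earlier results of these data known. Named genes are the members, at most 3 per pathway list by smallest p, the other near relatives, and the 5 nearest in pattern (prior count 2). A few genes so selected are not reported here but were kept in all tests and counts. Marker lists (neutrophil, monocyte, Kupffer, T and NK, B, mast, hepatocyte, endothelial, stellate, cholangiocyte) are given as counts, medians and sums. Libraries of a group differed well beyond sampling noise (chi-square per degree of freedom 31.4 to 74.8).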

Additional observations from a re-analysis of the deposited data

How the results depend on the processing

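Across 17 alternatives, 5 to 7 members passed (7 as reported), 3 to 5 also passed the fold limit (4 as reported), and 21 to 32 pathway genes passed (31 as reported). Mcl1, Bcl2l1, the Bcl2a1 sum and each Bcl2a1 copy tested passed in all of them. Of 704 alternative values, 635 were classed as the same and 50, all fold changes, as having lost the threshold. A fold change was classed as the same if it kept its direction and side of the threshold. Counts were judged only by staying within a set fold of the reported count, and ratios only by sign. Genes past both limits numbered 1813, but 901 and 921 in limma on log2(FPKM + 1) with and without a filter. The median of all genes was -0.17 without TMM factors (library size alone), and -0.12 and -0.15 in filtered FPKM. Of genes that passed, 53.9% were lower as reported, 48.3% by upper-quartile scaling, 72.5% by library size alone, and 69.5%, 69.6% and 72.8% by FPKM. Bcl2 could not be tested at a mean FPKM of at least 1, nor Bcl2a1a at 10 counts in every sample.

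Values near 0 changed sign, and the cause was not tested. The log2 fold change of Bax was 0.0086 with relative log expression scaling, 0.0081 in DESeq2 and 0.048 with upper-quartile scaling, and that of Bcl2 was 0.17 with the length trend removed. When single livers were dropped, the range was -0.079 to 0.073 for Bax, -0.29 to 0.12 for Bcl2, -0.13 to 0.54 for Bcl2l2, -0.058 to 0.66 for Bmf and -0.31 to 0.20 for the change in the log2 ratio of Bcl2 to Bax (-0.08 as reported).

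The replicate numbers did not pair the livers: deviations of same-numbered livers correlated at -0.0559, 0.00522 and -0.0579, and 0 of 6 libraries correlated best with their own number. With the replicate number as a block, 6 members passed and the Bcl2a1 sum was at -2.31 (edgeR adjusted p = 0.00349).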
